A study of Mus musculus with 8 samples.

Results

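The genes described here are 43 mouse genes of the peroxisome, picked by symbol from the 24033 genes of the deposited table. They comprise 12 Pex genes, which build the organelle, and 31 genes for enzymes and membrane proteins of its metabolism. Their levels were compared between 4 K15-SKO and 4 MyoCre soleus muscles, all from mice aged 2 months. K15-SKO mice (Myogenin-Cre/+;K15F/F) carried floxed Klf15 alleles and 1 copy of Cre recombinase under control of the myogenin gene, whose expression marks differentiating muscle cells. MyoCre mice carried the same Cre without floxed alleles (Myogenin-Cre/+), so both groups expressed the recombinase. KLF15 is a Kruppel-like transcription factor known as a regulator of lipid and amino acid metabolism, and the comparison asks what its deletion in muscle does to RNA levels. Cells of the muscle without Cre keep Klf15, and the measured RNA comes from the whole muscle. In such bulk samples, fewer cells of a type and less RNA per cell cannot be told apart.

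Peroxisomes are organelles bounded by a single membrane that shorten very long and branched fatty acids, start the synthesis of ether lipids and break down the hydrogen peroxide that their oxidases make. Their matrix enzymes are made in the cytosol, bound by soluble receptors and passed through a channel of peroxins, the products of the Pex genes. Slow oxidative muscle such as the soleus burns fatty acids mainly in mitochondria, and its peroxisomes hand shortened acyl chains on to them.

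The unit of the table is taken to be FPKM, fragments per kilobase of transcript scaled to library size, so levels can be set side by side between genes. Column sums were 519884 to 652275 FPKM, and the depth inferred from low values ran between 7390000 and 22400000 fragments. Klf15 itself had 15.7, 19.3, 16.7 and 13.1 FPKM in K15-SKO muscle, against 44.5, 49.8, 49.1 and 22.8 FPKM in MyoCre muscle (log2 fold change -1.28, SE 0.25, limma adjusted p = 0.0315). That call was lost without K15-SKO replicate 1, 3 or 4 (adjusted p = 0.0939, 0.152 and 0.0534) and without MyoCre replicate 1, 2 or 3 (adjusted p = 0.123, 0.0855 and 0.199). The floxed exons were not given in the sources used here, so the Klf15 level may include transcripts that lack only those exons. The fibre markers of the labelled tissue were present, with 786.1 to 2082 FPKM of the slow myosin Myh7 in K15-SKO and 669.2 to 2280 FPKM in MyoCre muscle. Of the 8 libraries, 2 stood apart. In K15-SKO replicate 3 the median-of-ratios factor, which sets a library's typical gene against the other libraries, was 0.796, against 0.961 to 1.151 in the other 7, and the nuclear RNA Rn7sk took 14.1% of the FPKM sum, where other libraries had 8.67% to 10.5%. MyoCre replicate 2, the deepest library, was the only male, with a mean of 16.2 FPKM over 4 Y-linked genes, against 0 in the other 7.

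In K15-SKO muscle 1 of the peroxisome genes was called lower and none higher, at an adjusted p under 0.05. The called gene was Pxmp2, a channel protein of the peroxisomal membrane, at 42.1% of the MyoCre level, and 3 of 24 alternative fits lost the call. Ehhadh, the bifunctional enzyme of peroxisomal beta-oxidation, had nearly the same fold change at a much lower level and missed the threshold. No Pex gene passed. Of the 43 genes 42 had a mean of at least 1 FPKM and were tested with limma on log2(FPKM + 0.5), with p-values adjusted over all 12535 genes tested. The 1 call among the 42 stands beside 0.183% of all tested genes called lower and 0.367% called higher, with every higher one listed at 0 in every MyoCre library.

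**Figure D1:**
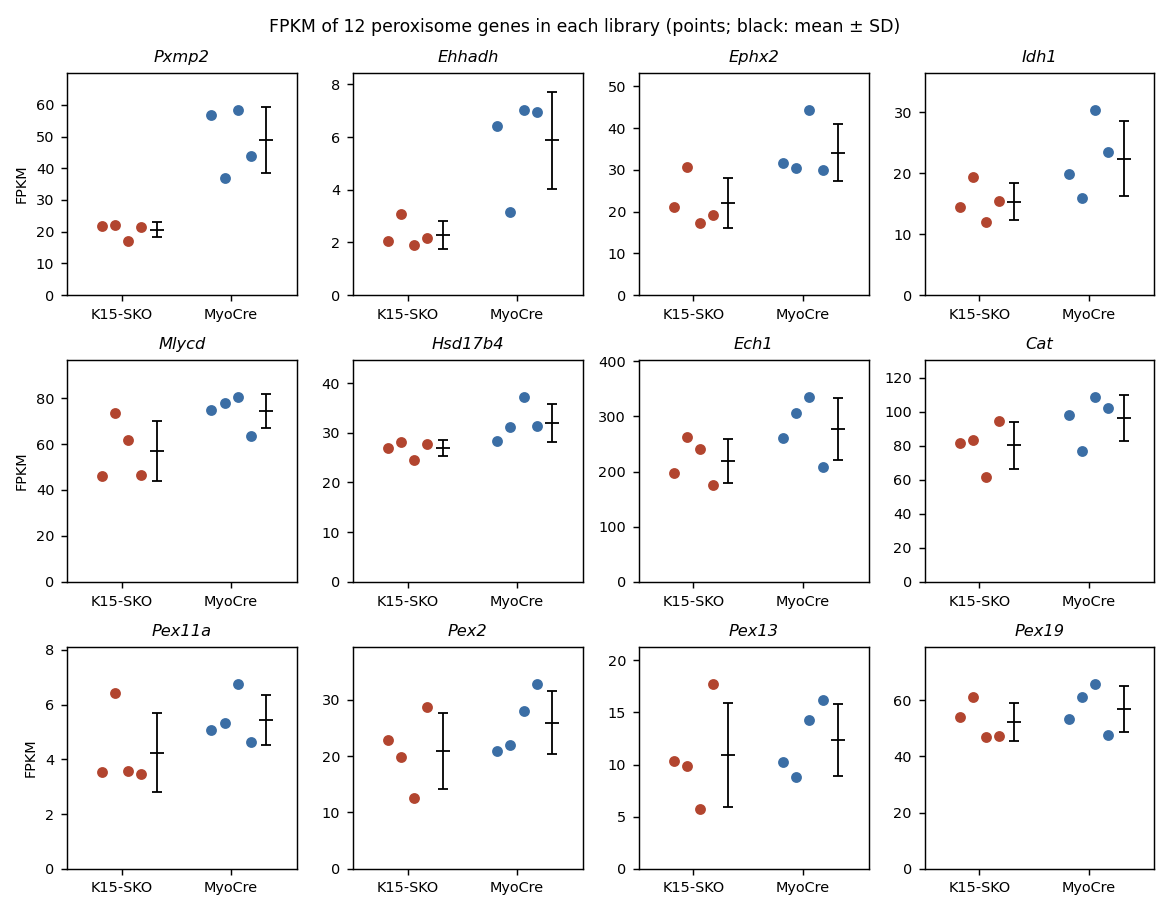
FPKM (vertical axis, from 0, on a separate scale in each panel) of 12 peroxisome genes in the 4 K15-SKO libraries (left in each panel) and the 4 MyoCre libraries (right), as points in order of replicate number, with the mean ± SD in black. Pxmp2 lies at 17.2 to 22.0 FPKM in K15-SKO and at 36.9 to 58.3 FPKM in MyoCre muscle, while the Pex genes of the bottom row overlap between genotypes.

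Pxmp2 measured 21.8, 22.0, 17.2 and 21.5 FPKM in K15-SKO replicates 1 to 4, against 56.9, 36.9, 58.3 and 43.8 FPKM in the MyoCre libraries. The highest K15-SKO library stayed below the lowest MyoCre library, and the K15-SKO values were close together. The means were 20.6 ± 2.31 FPKM in K15-SKO and 49.0 ± 10.3 FPKM in MyoCre muscle (SD, n = 4 each; log2 fold change -1.21, SE 0.19, 95% interval -1.63 to -0.79, limma adjusted p = 0.00635). By the estimated depth these values rested on about 165 to 242 fragments per K15-SKO library and about 470 to 861 per MyoCre library. The call also held once genes at 0 throughout a genotype had been removed from the fit (adjusted p = 0.0383). With median-of-ratios scaling added to that fit, the adjusted p was 0.0607 and the log2 fold change -1.07. The gene lies on chromosome 5 from 110274282 to 110286186, on the minus strand of mm10, and 129 bases of its exons overlap the predicted gene Gm15788 on the other strand, which is not analysed here. Whether reads were counted by strand was not given in the sources used here.

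The other members of the peroxisomal membrane did not pass. Abcd3 and Abcd2, transporters that carry acyl-CoA esters into the organelle, both overlapped between genotypes. Abcd3 had 32.5, 31.8, 21.2 and 38.1 FPKM in K15-SKO muscle, against 33.6, 32.5, 44.6 and 42.8 FPKM in the MyoCre libraries. Abcd2 measured 10.4, 7.95, 4.09 and 9.37 FPKM in K15-SKO replicates 1 to 4, against 10.1, 8.0, 11.2 and 10.2 FPKM in the MyoCre libraries. For both genes K15-SKO replicate 3 was the lowest of all 8 libraries (log2 fold change -0.32 for Abcd3 and -0.36 for Abcd2). Mpv17, a relative of Pxmp2 that was first described in peroxisomes and is known from the mitochondrial inner membrane, averaged 15.3 ± 1.70 FPKM in K15-SKO and 17.4 ± 2.85 FPKM in MyoCre muscle. Its log2 fold change of -0.17 had a 95% interval of -0.56 to 0.21, which does not reach the value of Pxmp2. Pxmp4, another membrane protein, averaged 14.03 ± 3.53 FPKM in K15-SKO and 13.9 ± 1.39 FPKM in MyoCre muscle.

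Beta-oxidation in peroxisomes runs through an acyl-CoA oxidase, a bifunctional enzyme and a thiolase. Ehhadh, the L-bifunctional enzyme that carries out the hydration and dehydrogenation steps, stood at 2.03, 3.07, 1.90 and 2.16 FPKM in the K15-SKO muscles, against 6.43, 3.14, 7.02 and 6.93 FPKM in the MyoCre libraries. The groups did not overlap, but MyoCre replicate 2 lay just above the highest K15-SKO library and far below the other MyoCre libraries. Means were 2.29 ± 0.53 FPKM in K15-SKO and 5.88 ± 1.84 FPKM in MyoCre muscle (SD, n = 4 each), or 38.9% of the MyoCre level. The log2 fold change was -1.15 (SE 0.24, 95% interval -1.68 to -0.63, limma adjusted p = 0.0613), and it was -1.40 with adjusted p = 0.00206 when MyoCre replicate 2 was left out. After median-of-ratios scaling of all 8 libraries it was -1.04 with limma adjusted p = 0.207. Ehhadh lies on chromosome 16 from 21761287 to 21787807, on the minus strand of mm10, and has 1 annotated transcript whose exons overlap no other gene.

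Upstream sequence was read for 35 of the 43 genes from RefSeq's promoter windows (GRCm38.p6), as the 250 bases before the annotated start. The other 8 had no window, and the called gene Pxmp2 is among them. Each was searched on both strands for CCACCC, a box that Kruppel-like factors bind, for AGGTCA, the core letters bound by nuclear receptors such as the PPARs, and for the DR1 element of PPAR with RXR, which is AGGTCA repeated after 1 free base and so contains the core. The 3 sequences below are shown because Ehhadh has the largest fold change among the genes with a window, Cat holds most of the searched letters, and Mpv17 is the relative of Pxmp2. Capitals mark CCACCC or AGGTCA or their reverse complements, and all are read 5′ to 3′ on the gene's strand. The Ehhadh window (chr16:21787835-21788084, minus strand) holds neither. The Cat window (chr2:103485154-103485403, minus strand) holds 3 boxes, beginning 160, 96 and 31 bases before the start, and 1 AGGTCA. The Mpv17 window (chr5:31154252-31154501, minus strand) holds 3 boxes, beginning 222, 215 and 84 bases before the start.
Ehhadh: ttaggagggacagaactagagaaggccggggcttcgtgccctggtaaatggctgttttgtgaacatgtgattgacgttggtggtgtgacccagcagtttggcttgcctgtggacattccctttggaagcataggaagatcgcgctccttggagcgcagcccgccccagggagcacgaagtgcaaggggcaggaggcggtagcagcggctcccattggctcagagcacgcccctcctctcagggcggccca
Cat: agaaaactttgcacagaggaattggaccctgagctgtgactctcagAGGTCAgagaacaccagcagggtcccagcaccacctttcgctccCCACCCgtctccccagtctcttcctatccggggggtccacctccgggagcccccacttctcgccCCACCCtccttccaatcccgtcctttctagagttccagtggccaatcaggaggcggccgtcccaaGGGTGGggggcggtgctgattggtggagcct
Mpv17: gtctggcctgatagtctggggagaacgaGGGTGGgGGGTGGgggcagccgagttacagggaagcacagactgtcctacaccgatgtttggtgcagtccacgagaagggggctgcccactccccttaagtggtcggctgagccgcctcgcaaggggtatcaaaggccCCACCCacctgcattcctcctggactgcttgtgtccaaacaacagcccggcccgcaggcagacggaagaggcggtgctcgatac
The box occurred in 11 of 35 peroxisome genes (31.4%), in 37.1% of the tested genes with a window and in 30.6% of all genes with one. AGGTCA occurred in 2 of 35 (5.71%), in 12.9% of the tested genes and in 15.8% of all genes. The DR1 element was found in none of the 35 and in 0.0407% of all genes. These counts concern only the letters in these windows.

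Hsd17b4, the D-bifunctional enzyme for the same 2 steps, had 27.0, 28.2, 24.6 and 27.7 FPKM in K15-SKO muscle, against 28.3, 31.1, 37.2 and 31.3 FPKM in the MyoCre libraries. The groups touched without overlapping, and after median-of-ratios scaling they overlapped (log2 fold change -0.24, SE 0.16, limma adjusted p = 0.957 on the deposited values). Its level was several times that of Ehhadh in both genotypes. Scp2, which encodes a thiolase for branched chains and a lipid transfer protein, measured 20.4, 25.7, 15.3 and 22.2 FPKM in K15-SKO replicates 1 to 4, against 25.6, 27.1, 27.0 and 23.0 FPKM in the MyoCre libraries. The MyoCre libraries lay within a narrow band that K15-SKO replicate 2 entered, and the gene did not pass (log2 fold change -0.31).

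Ech1, a dienoyl-CoA isomerase of peroxisomes and mitochondria, was the most abundant of the 43. It stood at 198.0, 261.6, 240.7 and 175.2 FPKM in the K15-SKO muscles, against 260.4, 305.8, 334.9 and 207.8 FPKM in the MyoCre libraries. These overlapped, and the log2 fold change of -0.33 (95% interval -0.77 to 0.10) did not pass. The remaining tested beta-oxidation genes were Acox3, an oxidase of branched chains, the thiolase gene Acaa1a, the racemase gene Amacr, and the reductase genes Decr2 and Pecr. Their log2 fold changes ran from -0.27 for Amacr to 0.12 for Decr2, and none passed. Acaa1b, a close copy of Acaa1a, was listed at 0 in all 4 K15-SKO libraries and in MyoCre replicates 2 and 4, with 0.07 FPKM in MyoCre replicates 1 and 3. It was not tested, and reads that match both copies make the split between them uncertain.

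Alpha-oxidation removes 1 carbon from branched fatty acids such as phytanic acid. Phyh, its hydroxylase, had 145.4, 151.1, 84.1 and 138.2 FPKM in K15-SKO muscle, against 149.7, 165.2, 162.6 and 148.6 FPKM in the MyoCre libraries. K15-SKO replicate 3 was low and the other libraries lay close together (log2 fold change -0.31, adjusted p = 0.957). Hacl1, the lyase of the pathway, averaged 3.57 ± 0.62 FPKM in K15-SKO and 3.97 ± 0.91 FPKM in MyoCre muscle. The ether lipid genes Gnpat, Agps and Far1, which make the first intermediates of plasmalogens, had log2 fold changes of -0.09, -0.23 and -0.13. Gnpat, the acyltransferase of the first step, was the most abundant of these at 75.2 ± 10.5 FPKM in K15-SKO and 80.0 ± 10.2 FPKM in MyoCre muscle.

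Among genes that handle peroxide and redox equivalents, Ephx2 and Idh1 had the smallest p-values. Ephx2, an epoxide hydrolase of cytosol and peroxisomes, measured 21.2, 30.6, 17.3 and 19.1 FPKM in K15-SKO replicates 1 to 4, against 31.7, 30.4, 44.3 and 29.97 FPKM in the MyoCre libraries. Only K15-SKO replicate 2 reached into the MyoCre range (log2 fold change -0.63, SE 0.21, limma adjusted p = 0.695). Idh1, the NADP-dependent isocitrate dehydrogenase of cytosol and peroxisomes, stood at 14.5, 19.4, 12.1 and 15.4 FPKM in the K15-SKO muscles, against 19.8, 15.9, 30.4 and 23.5 FPKM in the MyoCre libraries. Here MyoCre replicate 2 lay within the K15-SKO range (log2 fold change -0.51, SE 0.22, adjusted p = 0.957).

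Catalase, encoded by Cat, splits hydrogen peroxide and is the classical marker enzyme of the organelle. It had 81.5, 83.5, 61.7 and 94.7 FPKM in K15-SKO muscle, against 97.9, 77.0, 108.6 and 102.3 FPKM in the MyoCre libraries. K15-SKO replicate 3 was lowest, and MyoCre replicate 2 alone lay within the K15-SKO range (log2 fold change -0.27, 95% interval -0.67 to 0.14). Prdx5, a peroxiredoxin of peroxisomes, mitochondria and cytosol, measured 82.4, 86.4, 85.2 and 67.9 FPKM in K15-SKO replicates 1 to 4, against 78.4, 110.5, 99.1 and 64.1 FPKM in the MyoCre libraries. The K15-SKO values lay wholly within the MyoCre range, and the log2 fold change of -0.10 turned to 0.033 after median-of-ratios scaling. Exons of Prdx5 overlap the gene Trmt112 on the other strand over 409 bases. Dhrs4, a carbonyl reductase, averaged 26.9 ± 4.55 FPKM in K15-SKO and 31.6 ± 4.94 FPKM in MyoCre muscle.

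The decarboxylase gene Mlycd, the Nudt genes and the thioesterase gene Acot8 also missed the threshold. Mlycd, the malonyl-CoA decarboxylase of mitochondria, peroxisomes and cytosol, stood at 46.2, 73.4, 61.8 and 46.4 FPKM in the K15-SKO muscles, against 75.0, 77.9, 80.4 and 63.7 FPKM in the MyoCre libraries. K15-SKO replicates 1, 3 and 4 lay below every MyoCre library and replicate 2 lay among them (log2 fold change -0.40, SE 0.19, adjusted p = 0.957). Nudt7 and Nudt19 encode hydrolases of coenzyme A and its esters. Nudt7 had 39.0, 42.1, 42.3 and 42.8 FPKM in K15-SKO muscle, against 44.9, 41.7, 61.8 and 53.5 FPKM in the MyoCre libraries. Nudt19 measured 15.9, 14.8, 13.3 and 12.7 FPKM in K15-SKO replicates 1 to 4, against 14.7, 17.0, 19.9 and 19.9 FPKM in the MyoCre libraries. Both genes overlapped between genotypes through 1 low MyoCre library, with log2 fold changes of -0.26 and -0.32. Of Nudt19's exon bases 35.0% overlap a gene on the other strand. Nudt12 and the thioesterase gene Acot8 had log2 fold changes of -0.33 and 0.13, and the protease gene Lonp2 had one of -0.22.

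None of the 12 genes of organelle assembly passed the test. Pex11a, which promotes peroxisome elongation and division, had the smallest p-value among them, with 3.53, 6.41, 3.58 and 3.46 FPKM in the K15-SKO libraries, against 5.06, 5.32, 6.75 and 4.64 FPKM in the MyoCre libraries. Of the K15-SKO libraries 3 lay below every MyoCre library, and replicate 2 lay far above them (log2 fold change -0.36, SE 0.21, adjusted p = 0.957). Without K15-SKO replicate 2 the log2 fold change was -0.55 and did not pass.

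Pex2 and Pex10 encode RING ubiquitin ligases that recycle the import receptors. Pex2 stood at 22.9, 19.8, 12.5 and 28.7 FPKM in the K15-SKO muscles, against 21.0, 22.0, 28.1 and 32.8 FPKM in the MyoCre libraries. Pex10 had 4.32, 6.10, 4.82 and 3.74 FPKM in K15-SKO muscle, against 5.11, 6.18, 6.02 and 4.10 FPKM in the MyoCre libraries. Both genes overlapped, with log2 fold changes of -0.34 and -0.16. Pex5, the receptor for the common C-terminal targeting signal, measured 8.70, 9.59, 8.31 and 6.59 FPKM in K15-SKO replicates 1 to 4, against 8.53, 10.4, 10.6 and 7.31 FPKM in the MyoCre libraries. Its values interleaved (log2 fold change -0.14), as did those of Pex7, the receptor for the N-terminal signal, at 11.3 ± 3.74 FPKM in K15-SKO and 11.8 ± 2.28 FPKM in MyoCre muscle. Pex13, of the docking complex at the membrane, stood at 10.4, 9.83, 5.76 and 17.7 FPKM in the K15-SKO muscles, against 10.2, 8.85, 14.3 and 16.2 FPKM in the MyoCre libraries. The highest and the lowest of the 8 were both K15-SKO libraries, replicates 4 and 3, and its log2 fold change, -0.24 over all libraries, was 0.018 without replicate 3. Pex14, its docking partner, averaged 6.83 ± 1.51 FPKM in K15-SKO and 7.43 ± 1.80 FPKM in MyoCre muscle.

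Pex3, Pex16 and Pex19 insert proteins into the peroxisomal membrane. Pex19, the soluble chaperone of the 3, was the most abundant Pex gene, with 54.1, 61.2, 46.7 and 47.2 FPKM in the K15-SKO libraries, against 53.3, 61.1, 65.8 and 47.6 FPKM in the MyoCre libraries. Pex3 had 7.83, 5.81, 4.20 and 5.32 FPKM in K15-SKO muscle, against 5.17, 5.82, 7.27 and 7.72 FPKM in the MyoCre libraries. Neither separated the genotypes, and the small log2 fold changes of -0.12 for Pex19 and -0.17 for Pex3 turned positive, Pex19 under each of the 3 scalings tried and Pex3 with library weights. Pex16 averaged 10.3 ± 2.24 FPKM in K15-SKO and 10.4 ± 2.23 FPKM in MyoCre muscle. Pex6 and Pex26, an ATPase that pulls receptors out of the membrane and its anchor, had log2 fold changes of -0.09 and -0.06. With 1.39 FPKM on average over the 8 libraries, Pex26 was the lowest of the tested genes.

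**Figure D2:**
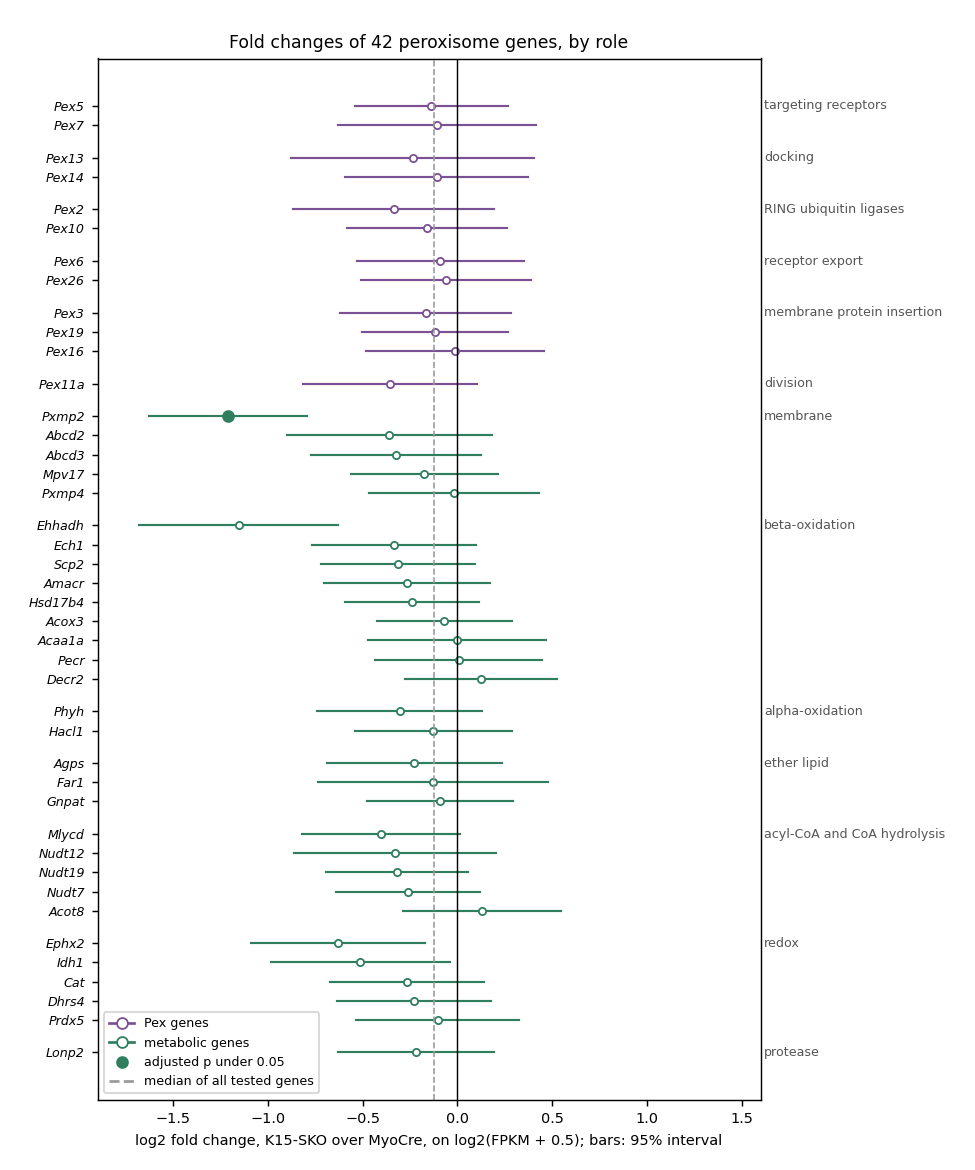
Log2 fold change of K15-SKO over MyoCre on log2(FPKM + 0.5) (horizontal axis) with its 95% interval for the 42 tested peroxisome genes, grouped by role, with Pex genes in purple, metabolic genes in green, the called gene filled and the median of all tested genes as a dashed line. Pxmp2 at -1.21 and Ehhadh at -1.15 lie apart from the other genes, which run from -0.63 to 0.13.

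Side by side, the Pex genes had a median log2 fold change of -0.13 (12 genes, -0.36 to -0.01) and the metabolic genes one of -0.25 (30 genes tested, -1.21 to 0.13). The median of all tested genes was -0.12, so the Pex genes lay 0.005 below it and the metabolic genes 0.13 below it. Without Pxmp2 and Ehhadh the metabolic genes lay 0.11 below it. Of the Pex genes 6 lay below the median of all genes and 6 above, and of the metabolic genes 22 lay below and 8 above. Fold changes below 0 numbered 39 of 42, where 77% of all tested genes were below 0. After median-of-ratios scaling, which moved the median of all genes to 0.00, they numbered 28 of 42, beside 49.9% of all tested genes. The Pex genes were then divided into 6 below and 6 above 0, and the metabolic genes into 22 below and 8 above.

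At an unadjusted p under 0.05, 4 of the 42 were lower in K15-SKO muscle (9.52%) and 0 were higher, beside 3.43% and 0.901% of all tested genes. These 4 were Pxmp2, Ehhadh, Ephx2 and Idh1, all of the metabolic group. K15-SKO values lay wholly below MyoCre values in 3 of the 42, Pxmp2, Ehhadh and Hsd17b4, and wholly above in 0, beside 2.72% and 0.63% of all tested genes. After median-of-ratios scaling Pxmp2 and Ehhadh remained, beside 1.51% of all tested genes. No test was made of the difference between the Pex and the metabolic group, because the genes were chosen with earlier results of these data known.

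**Figure D3:**
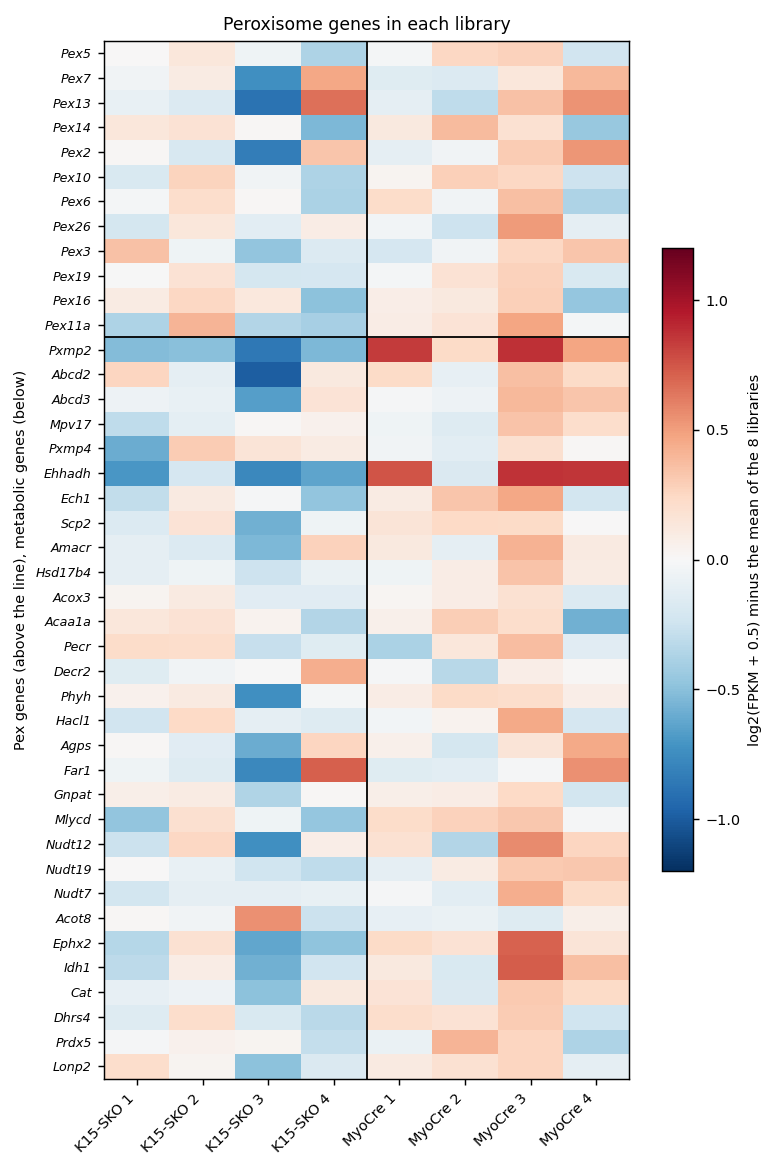
Log2(FPKM + 0.5) of the 42 tested peroxisome genes (rows, Pex genes above the horizontal line) in each of the 8 libraries (columns, K15-SKO left of the vertical line), as the difference from the gene's mean over the 8 libraries, from blue (lower) to red (higher). Pxmp2 and Ehhadh change at the vertical line, except Ehhadh in MyoCre replicate 2, and K15-SKO replicate 3 is the lowest library for 21 of the 42 genes. All tested genes averaged -0.26 in that library.

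K15-SKO replicate 3 was the lowest of the 8 libraries for 21 of the 42 genes, K15-SKO replicate 4 for 10 and K15-SKO replicate 1 for 5. After median-of-ratios scaling these numbers were 10, 8 and 9. The same counts over all tested genes were not made. Relative to each gene's mean over the 8 libraries, the Pex genes averaged -0.03, 0.12, -0.30 and -0.11 on the log2 scale in the K15-SKO libraries, against -0.01, 0.04, 0.31 and -0.03 in the MyoCre libraries. The metabolic genes averaged -0.14, 0.02, -0.35 and -0.10 in the K15-SKO libraries, against 0.09, 0.03, 0.35 and 0.09 in the MyoCre libraries. All tested genes averaged -0.26 in K15-SKO replicate 3 and 0.16 in MyoCre replicate 3, the same 2 libraries in which both peroxisome groups were lowest and highest. The part of library composition in the small differences was not tested. Pxmp2 was called without K15-SKO replicate 3 (log2 fold change -1.13, limma adjusted p = 0.0228) and without MyoCre replicate 2 (log2 fold change -1.33, adjusted p = 0.00325). With genes at 0 throughout a genotype also removed, Pxmp2 was not called without K15-SKO replicate 3 (limma adjusted p = 0.0848).

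**Figure D4:**
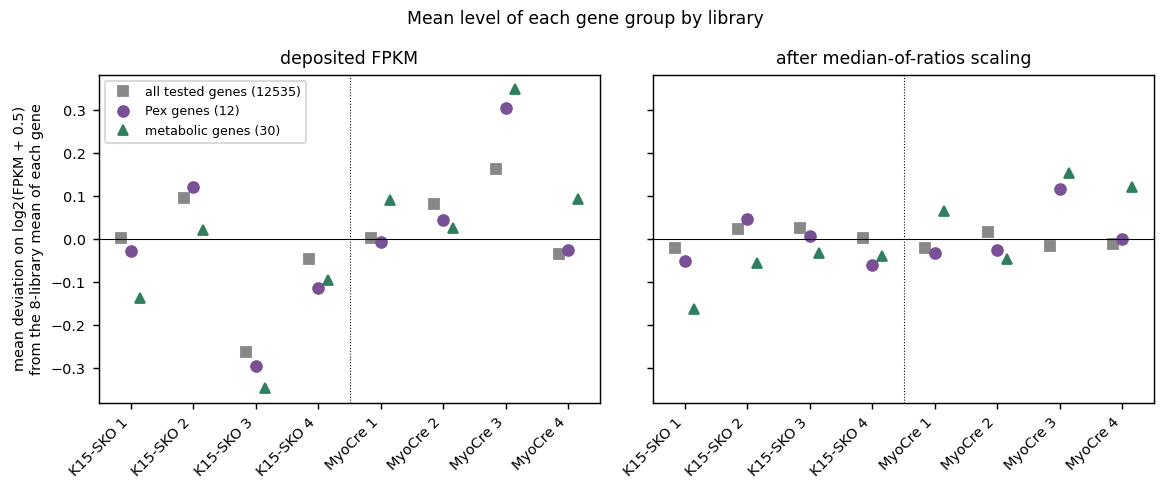
Mean deviation of the Pex genes (purple), the metabolic genes (green) and all tested genes (grey) from each gene's 8-library mean on log2(FPKM + 0.5), by library, from deposited FPKM (left panel) and after median-of-ratios scaling (right panel), with K15-SKO libraries left of the dotted line. In the left panel all 3 groups are lowest in K15-SKO replicate 3 and highest in MyoCre replicate 3.

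Beyond the 43 genes, a list of 55 further genes of peroxisomal enzymes, transporters, division factors and PPAR regulators was read from the same fit. Of these 50 were in the table and 38 were tested. The list had been chosen with earlier results of these data known, so its counts are not a test. Of the 38, 2 fell while 0 rose, beside 0.183% of all tested genes called lower and 0.367% called higher. One that fell was Gstk1, a glutathione S-transferase of peroxisomes and mitochondria, with 17.2, 18.1, 12.2 and 14.05 FPKM in the K15-SKO libraries, against 45.6, 32.05, 54.3 and 34.5 FPKM in the MyoCre libraries (log2 fold change -1.39, SE 0.21, limma adjusted p = 0.00379). As for Pxmp2, no K15-SKO library reached the lowest MyoCre library, which again was replicate 2. Gstk1 was called when any 1 library was left out. The median log2 fold change of the 38 was -0.19, or 0.07 below that of all tested genes, and 22 of them lay below that median. With genes at 0 throughout a genotype removed, 1 of the 38 fell, which was Gstk1, beside 0.097% of all genes tested in that fit.

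No marker of the other cell types listed for the muscle passed the test, but in several lists the fold changes shared a sign. Of all tested genes 77% had fold changes below 0, or 49.9% after median-of-ratios scaling. Of the 7 tested markers of fat cells 6 had negative log2 fold changes and 1, Fabp4, a positive one. Plin1, which coats lipid droplets, had 1.74, 1.72, 1.14 and 0.45 FPKM in K15-SKO muscle, against 2.28, 1.73, 2.03 and 2.53 FPKM in the MyoCre libraries (log2 fold change -0.65, unadjusted p = 0.0267 and adjusted p = 0.94 from limma). Adipoq and Cfd, secreted by fat cells, averaged 66.7% and 65.3% of the MyoCre level. The sum of all 8 listed fat cell genes, 255.5 to 500.7 FPKM in K15-SKO and 262.2 to 348.8 FPKM in MyoCre libraries, was mostly Fabp4, at 226.2 to 458.0 FPKM in K15-SKO and 217.0 to 306.1 FPKM in MyoCre libraries. Of the 2 brown fat genes, Cidea was present in every library, at 1.73 to 2.69 FPKM in K15-SKO and 2.54 to 4.34 FPKM in MyoCre libraries (log2 fold change -0.44, unadjusted p = 0.0561 and adjusted p = 0.957 from limma). Ucp1 was listed at 0 in every K15-SKO library and in 3 of the 4 MyoCre libraries.

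All 7 markers of macrophages and leukocytes had negative log2 fold changes, beside 77% of all tested genes. Their sums were 30.6 to 62.9 FPKM in K15-SKO and 57.0 to 70.1 FPKM in MyoCre libraries. All 6 markers of fibroblasts and tendon were likewise below 0, at 352.2 to 575.3 FPKM in K15-SKO and 455.0 to 798.5 FPKM in MyoCre libraries, as were all 3 of Schwann cells, at 12.6 to 17.8 FPKM in K15-SKO and 15.3 to 20.7 FPKM in MyoCre libraries. Kera, of the fibroblast and tendon list, had the smallest p-value of all the markers, at 47% of the MyoCre level. Its log2 fold change was -1.12 (SE 0.33, unadjusted p = 0.0052 and adjusted p = 0.475 from limma), and its groups overlapped. Col1a2 of the same list had a log2 fold change of -0.57 (limma unadjusted p = 0.042, adjusted p = 0.957). Of 6 endothelial markers 5 were above 0, and they summed to 108.8 to 133.7 FPKM in K15-SKO and 83.8 to 117.5 FPKM in MyoCre libraries. For Cdh5 every K15-SKO library, at 29.1 to 31.8 FPKM, lay above every MyoCre library, at 18.3 to 27.1 FPKM. Its log2 fold change was 0.43 (unadjusted p = 0.0291 and adjusted p = 0.948 from limma). Such separation upward was seen in 0.63% of all tested genes. All 5 erythroid markers were above 0, with sums of 320.3 to 2034 FPKM in K15-SKO and 284.0 to 458.9 FPKM in MyoCre libraries. Hbb-bs, a beta-globin gene, had 215.0, 365.3, 1265 and 226.9 FPKM in K15-SKO muscle, against 188.6, 290.1, 195.4 and 274.0 FPKM in the MyoCre libraries. The high library was K15-SKO replicate 3, in which 21 of the 42 peroxisome genes were lowest, or 10 after median-of-ratios scaling. All tested genes averaged -0.26 in that library on the log2 scale, relative to each gene's 8-library mean, and 0.02 after that scaling. The part of these cells in the peroxisome gene levels was not tested.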

How the data were processed

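RNA sequencing of 8 soleus muscles was used as 1 deposited table. Per the submitters' processing notes the authors used STAR, Cufflinks and Cuffdiff with mm10, without versions. The deposited values were taken as FPKM, inferred from those tools and from values that are not whole and sum to unequal totals. Annotation release, strand setting and library scaling were not given in the sources used here. No column was left over (0 further columns). An exact 0 can be a failed estimate in it: 159 of the tested genes were listed at 0 in a whole genotype, none of them a peroxisome gene of the 43.

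With limma 3.58.1 (R 4.3.3), log2(FPKM + 0.5) was modelled on genotype alone, two-sided, with trend and robust variance estimation, for the 12535 genes averaging 1 FPKM or more. This scale understates the change of low genes. All of these genes entered the Benjamini-Hochberg adjustment, and a gene passed at an adjusted p under 0.05. The script was tested on simulated data, with planted changes larger than those of the peroxisome genes. Genes listed at 0 in a whole genotype were left out there, so the calls reported here were not checked by it. Errors are moderated standard errors of log2 fold changes or SDs over 4 libraries, and each replicate is labelled as a separate sample without naming the animal, so p-values measure the spread between these samples. The 43 genes and the other lists were chosen with earlier results of these data known. Genes described one by one with every library are those called, the 6 Pex and 14 metabolic genes with the smallest p, the 3 and 4 with the highest mean, and those whose groups do not overlap. Other genes are given by fold change or mean. The values of 1 gene of the further list are not reported here.

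For depth, FPKM was multiplied by length in genes with 1 transcript, and the most common of the lowest products was read as 1 fragment. It limits precision for low genes such as Ehhadh, with about 48 to 85 fragments per K15-SKO library. Genes were placed on mm10 by gene ID in GENCODE M21, where 31 of 43 had the same ID version. Protein sequences were not used here. Alternatives were other pseudocounts, filters, scalings and variance settings, a replicate block, and leaving out each library. Another 3 that combine these were chosen after seeing the data.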

Additional observations from a re-analysis of the deposited data

Results flagged for a closer look

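In 5 of 84 groups of 4 libraries, 1 value lay far from the rest of its group by the ratio of its gap to the group's range. Chance at 1 in 20 gives 4.2 such groups. Pxmp2 was low in K15-SKO replicate 3, at 17.2 FPKM, where the other K15-SKO libraries had 21.5 to 22.0 FPKM. After median-of-ratios scaling Pxmp2 had 21.6 FPKM in that library, within the 20.8 to 22.4 FPKM of the other K15-SKO libraries. Ehhadh was low in MyoCre replicate 2, the male library, at 3.14 FPKM, where the other MyoCre libraries had 6.43 to 7.02 FPKM. Pex11a was high in K15-SKO replicate 2, at 6.41 FPKM, where the others had 3.46 to 3.58 FPKM. Ephx2 was high in MyoCre replicate 3, at 44.3 FPKM, where the others had 29.97 to 31.7 FPKM. Far1, a fatty acyl-CoA reductase, was high in MyoCre replicate 4, at 9.02 FPKM, where the others had 5.39 to 5.95 FPKM.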

How the results depend on the processing

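Pxmp2 passed in 21 of 24 alternatives, with log2 fold changes from -1.33 to -1.07 and adjusted p from 0.000329 to 0.0848. It missed the threshold with genes at 0 throughout a genotype removed (below: without the genes listed at 0) when median-of-ratios scaling (adjusted p = 0.0607), quantile normalization (0.0654) or the loss of K15-SKO replicate 3 (0.0848) was added. Ehhadh passed in 3 of 23, with library weights (adjusted p = 0.0159) and without MyoCre replicate 2 with (0.00206) or without (0.0165) the genes listed at 0. Over its alternatives the adjusted p ran to 0.50. The cause of these changes was not tested.

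The called peroxisome genes of the 43 numbered 2 with library weights and 2 without both the genes listed at 0 and MyoCre replicate 2. They numbered 0 in the 3 fits in which Pxmp2 missed the threshold, and 1 to 2 when each library was left out. The replicate block left Pxmp2 as the only call among the 43 (adjusted p = 0.0145) and 1 call in the further list. Same-numbered libraries were not paired by the labels, and their deviations correlated at 0.102, 0.233, 0.00223 and 0.277. Calls in the further list fell to 1 without a filter, with upper-quartile or quantile scaling, without robust estimation, and without the genes listed at 0 alone, with median-of-ratios scaling or without MyoCre replicate 2. They were 0 without the genes listed at 0 and either quantile normalization or the loss of K15-SKO replicate 3, and 1 to 2 when each library was left out. The median of the Pex genes relative to all genes ran from -0.06 to 0.04, and that of the metabolic genes from -0.18 to -0.09.

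Over all genes, 23 lower calls became 15 with median-of-ratios scaling, 14 with upper-quartile or quantile scaling, 15 without robust estimation, 101 with library weights, and 8 to 28 when each library was left out (8 without MyoCre replicate 3). Without the genes listed at 0 they were 12, or 3 with median-of-ratios scaling, 14 without MyoCre replicate 2, 0 without K15-SKO replicate 3 and 0 with quantile normalization. The 46 higher calls became 22 at a minimum mean of 5 FPKM, and 0 in every fit without the genes listed at 0. Klf15 missed the threshold without a filter (log2 fold change -1.28), with scaling by median of ratios (-1.15), by upper quartile (-1.15) or by quantiles (-1.15), without robust estimation (-1.28), and without the genes listed at 0 (-1.28), there also with median-of-ratios scaling (-1.15), quantile normalization (-1.14), without K15-SKO replicate 3 (-1.30) and without MyoCre replicate 2 (-1.18). Leaving out each library gave -1.55 to -1.18.

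Among the 22 peroxisome genes described one by one, 18 kept their sign throughout. Pex3 turned to 0.23 with library weights. Pex13 turned to 0.018 without K15-SKO replicate 3, also without the genes listed at 0, and ran from -0.50 to 0.018 when each library was left out. Pex19 turned to 0.018 with median-of-ratios scaling, 0.017 with upper-quartile scaling and 0.011 with quantile normalization, and without the genes listed at 0 to 0.018 and 0.021. Prdx5 turned to 0.033, 0.032 and 0.0091 under the same 3 scalings, to 0.033 and 0.023 without the genes listed at 0, and to 0.015 without MyoCre replicate 2 in both fits, with a range of -0.25 to 0.015 when each library was left out. A level of 1 FPKM over 1 kb of transcript corresponds to an estimated 7.39 to 22.4 fragments per library, which limits precision for low genes such as Pex26 (1.39 FPKM).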

Other observations

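Pxmp2 starts 120 bases from Pole, the catalytic subunit gene of DNA polymerase epsilon, which is read in the opposite direction. Pole averaged 0.67 FPKM in K15-SKO and 1.54 FPKM in MyoCre muscle, with 0.80, 0.78, 0.50 and 0.60 FPKM in the K15-SKO libraries, against 1.23, 1.47, 2.31 and 1.13 FPKM in the MyoCre libraries. The groups did not overlap, as in 2.72% of all tested genes, but Pole did not pass the threshold (log2 fold change -0.78, SE 0.22, limma adjusted p = 0.411). Its level was near the mean of 1 FPKM needed for testing. On the other side Pgam5, a mitochondrial phosphatase gene 4369 bases away, averaged 15.1 FPKM in K15-SKO and 18.3 FPKM in MyoCre muscle (log2 fold change -0.27, adjusted p = 0.957). Pole and Pgam5 were read as the nearest tested genes on either side, a choice made after the Pxmp2 result was known. The tested neighbours of Ehhadh, 2510009E07Rik and 1300002E11Rik, had log2 fold changes of -0.09 and -0.18.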
